A study of Mus musculus with 9 samples.

Results

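Single genes that mark the 2-cell (2C) stage of the mouse embryo were followed in RNA-seq libraries of ESCs after knockdown of Dppa2 or Dppa4. The members are 8 named genes, Zfp352, Tmem92, Cacna1s, Arg2, Gm428, Gm4340, Gm5039, and Gm8994, taken by their names from the table of normalized expression. A row was found for 7 of them among the 25965 genes of the table, and Gm5039 was not analysed here. All libraries came from E14 ESCs, 1 cell line of 129/Ola background grown in serum and LIF without feeder cells. The study describes the cells used for knockdown as carrying 2 fluorescent reporters of the 2C-like state, MERVL::tdTomato and Zscan4c::eGFP, in all treatments. Cells were transfected with pools of control, Dppa2, or Dppa4 siRNA at 0 h and again at 48 h, and were collected at 96 h, which is 4 d of treatment. Each of the 3 treatments had 3 libraries of polyadenylated RNA, called replicates A, B, and C, which makes 9 libraries. Their titles end in rep3A, rep3B, and rep3C in every treatment, and what the shared rep3 stands for is not given.

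Mouse zygotic genome activation peaks at the 2-cell stage, when the embryo first transcribes a large set of genes that are silent in most later cells. In ESC cultures a small and changing share of cells, the 2C-like cells, switches on the same transcripts for a short time. Dppa2 and Dppa4 are nuclear proteins with a SAP domain that act together as a pair and bind chromatin. Zfp352 codes for a zinc finger protein and is a widely used 2C marker. Tmem92 codes for a membrane protein. Cacna1s codes for the pore-forming subunit of the L-type calcium channel of skeletal muscle, which couples the membrane potential to contraction. Arg2 codes for the mitochondrial arginase, which cleaves arginine into ornithine and urea. Gm428, Gm4340, and Gm8994 carry predicted gene names. In bulk RNA, fewer cells that express a gene and less RNA per expressing cell cannot be told apart.

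The libraries held an estimated 17.3 to 40.5 Mreads on genes, with the deepest among the controls. Values are log2 of reads per gene, scaled to the library by the authors and not corrected for transcript length. The reads behind a value were inferred by ranking the values of its library. The value that stands for 0 reads lay between -4.50 and -4.47. Dppa2 transcript was at 8.93% of its control level with Dppa2 siRNA, and Dppa4 transcript was at 52.4% with Dppa4 siRNA. These are levels of RNA, and protein was not measured in these libraries. Dppa4 with Dppa2 siRNA was at 104% of control and Dppa2 with Dppa4 siRNA was at 96.5%. All 18 pluripotency markers, Pou5f1, Sox2, and Nanog among them, were expressed and none was called in either knockdown (limma adjusted p of 0.109 or above). An unadjusted p below 0.05 was found for 2 with Dppa2 siRNA and 3 with Dppa4 siRNA. The share of all tested genes with such a p against control was not determined.

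The members differ in how far their reads can be assigned to them. Zfp352 (ENSMUSG00000070902) lies on the forward strand at chr4:90218820-90225702 of GRCm38 and has 2 exons in the listed transcript. Tmem92 (ENSMUSG00000075610) lies on the reverse strand at chr11:94777217-94782703 with 5 exons. Cacna1s (ENSMUSG00000026407) spans chr1:136052750-136119822 on the forward strand with 44 exons. None of the 50-base stretches of the Cacna1s transcript occurred in a gene at another place, and the shares for Tmem92 and Zfp352 were 2.01% and 7.09%. Arg2 (ENSMUSG00000021125), on the forward strand at chr12:79130777-79156301 with 8 exons, shared none. Most or all stretches of these 4 genes were therefore particular to them, and relatives with less alike sequence were not looked for.

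The remaining members have close copies. Gm428 (ENSMUSG00000095341) lies on the forward strand at chr4:73683516-73687558 and shared 95.9% of its stretches with 11 other genes. The nearest copy in sequence was the gene that GENCODE names Gm11237, which held 90.7% of them. Gm4340 (ENSMUSG00000090854), on the forward strand at chr10:104194042-104196522, shared 98.2% of its stretches with 24 other genes, Gm21293 and Gm20765 among them. Gm428 and Gm4340 thus go against a description as genes outside large families. Gm8994 (ENSMUSG00000094973), a gene on the forward strand at chr6:136327539-136329983 whose listed transcript has 1 exon, lay between these cases at 56.9%. Its stretches were found in Gm5580 (51.6%), Gm5576 (26.1%), and Eif4a3 (13.7%), which codes for a helicase of the exon junction complex. How reads that map to several places were counted is not given in the sources used here, so the values of these 3 members are uncertain.

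Promoter sequences were at hand for 4 members and are shown for that reason. Lower values in every knockdown library than in any control library were shared by all 7 members with a row and did not select these 4. Each sequence covers 250 bases before to 50 after the annotated start in RefSeq (GRCm38.p6), on the forward strand, with TATAA in capitals.
Zfp352 (chr4:90218570-90218869): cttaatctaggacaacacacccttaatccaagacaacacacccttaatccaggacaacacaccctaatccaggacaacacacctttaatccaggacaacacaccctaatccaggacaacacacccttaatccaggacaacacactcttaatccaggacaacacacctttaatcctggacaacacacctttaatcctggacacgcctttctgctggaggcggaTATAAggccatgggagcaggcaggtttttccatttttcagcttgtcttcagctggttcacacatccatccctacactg
Gm428 (chr4:73683264-73683563): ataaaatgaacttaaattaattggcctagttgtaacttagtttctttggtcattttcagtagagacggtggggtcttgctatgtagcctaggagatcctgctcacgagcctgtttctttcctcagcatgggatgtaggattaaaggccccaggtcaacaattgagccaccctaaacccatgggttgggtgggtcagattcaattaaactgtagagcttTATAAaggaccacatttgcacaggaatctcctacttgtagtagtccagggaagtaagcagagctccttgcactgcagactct
Gm4340 (chr10:104193792-104194091): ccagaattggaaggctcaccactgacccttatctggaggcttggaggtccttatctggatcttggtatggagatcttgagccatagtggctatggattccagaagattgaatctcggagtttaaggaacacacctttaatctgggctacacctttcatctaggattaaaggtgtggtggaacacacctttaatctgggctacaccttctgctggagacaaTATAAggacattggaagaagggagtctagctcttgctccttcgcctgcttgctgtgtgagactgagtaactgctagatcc
Cacna1s (chr1:136052561-136052860): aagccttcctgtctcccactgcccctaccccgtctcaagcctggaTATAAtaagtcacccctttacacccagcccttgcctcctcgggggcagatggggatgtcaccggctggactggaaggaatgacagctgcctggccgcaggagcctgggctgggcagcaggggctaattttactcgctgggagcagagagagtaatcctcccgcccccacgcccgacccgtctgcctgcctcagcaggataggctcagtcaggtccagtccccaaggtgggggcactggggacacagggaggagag

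The letters TATAA began 28 bases before the start in Zfp352, 30 bases before it in Gm4340, and 32 bases before it in Gm428. In Cacna1s they began 205 bases before the start. Of 32851 promoters of the same length, 24.9% held TATAA on either strand, and 2.97% held it on the given strand with its first base between positions -35 and -25. Zfp352 also held 7 copies of TTAATCC, with first bases from -228 to -62, in a row of near-identical units. Gm428 and Gm4340 each held TTAATCC once, on the opposite strand, and Cacna1s did not hold it, against 2.23% of all promoters with it on either strand. A related motif, TTTAATC, can share bases with TTAATCC and was found on either strand in 3.27% of promoters, 3 times in Zfp352 and Gm4340, once in Gm428, and not in Cacna1s. All 3 motifs were chosen after the sequences had been read. Cacna1s held 9 CG dinucleotides and the other 3 promoters held 2 each, against a median of 7 over all promoters with quartiles of 3 and 20. These matches describe letters and not binding. Tmem92, Arg2, and Gm8994 were not matched.

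Which members control ESCs expressed was examined first. Per kb of transcript, Gm8994 was the highest at 3.06 ± 0.24 (log2, SD, n = 3), above Tmem92 at 2.50 ± 0.32 and Arg2 at 2.41 ± 0.41. The ranges of Tmem92 and Arg2 overlapped, whereas the lowest Gm8994 library, at 2.89, was just above the highest Arg2 library, at 2.88. Zfp352 followed at 0.06 ± 0.27 and Cacna1s at -0.85 ± 0.20, with ranges that did not overlap. Gm428, at -2.65 ± 1.70, overlapped both Cacna1s and Gm4340, the last at -3.31 ± 0.73.

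Zfp352 fell to 1 read or fewer in every knockdown library. Its log2 expression in replicates A, B, and C was 1.43, 1.38, and 0.94 with control siRNA, from 87, 147, and 49 reads. With Dppa2 siRNA it was -4.05, -4.48, and -3.65, from 1, 0, and 1 reads. With Dppa4 siRNA it was -4.25, -4.49, and -4.49, from 1, 0, and 0 reads. The groups did not overlap, and the gap between the lowest control and the highest knockdown library was 4.60 (log2) for Dppa2 and 5.20 for Dppa4. Dppa2 siRNA lowered it by a log2 difference of -5.31 (SE 0.37, limma adjusted p = 9.6e-05), and Dppa4 siRNA by -5.66 (SE 0.37, limma adjusted p = 9.6e-05). Since these values sit at the bottom of the scale, the pooled reads give the size of the decrease more directly. They left 0.944% of the control level with Dppa2 siRNA (exact 95% interval 0.114 to 3.44) and 0.385% with Dppa4 siRNA (0.00970 to 2.16), and such intervals cover counting error only.

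Tmem92 had the most pooled reads in control ESCs, 1346 over the 3 libraries. Control libraries A, B, and C stood at 3.20, 3.55, and 3.84, from about 311, 655, and 380 reads. Dppa2 siRNA libraries stood at -1.72, -2.65, and -2.95, from 8, 3, and 2 reads. Dppa4 siRNA libraries stood at -2.99, -2.63, and -3.40, from 4, 5, and 2 reads. All 6 knockdown libraries were far below the controls, and replicate A of Dppa2 siRNA was the highest of them. The difference was -5.97 (SE 0.37, limma adjusted p = 6.6e-05) with Dppa2 siRNA and -6.54 (SE 0.37, limma adjusted p = 6.4e-05) with Dppa4 siRNA. The reads left were 1.29% of control (0.685 to 2.21) and 0.889% (0.443 to 1.60).

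Cacna1s, a muscle channel gene, was expressed in control ESCs at a low and even level. Control libraries A, B, and C stood at 1.98, 1.58, and 1.73, from 131, 167, and 82 reads. Dppa2 siRNA libraries stood at -3.09, -3.21, and -3.65, from 3, 2, and 1 reads. Dppa4 siRNA libraries stood at -3.38, -3.80, and -3.97, also from 3, 2, and 1 reads. No knockdown library held more than 3 reads, and the groups did not overlap. The difference was -5.08 (SE 0.32, limma adjusted p = 7.0e-05) with Dppa2 siRNA and -5.48 (SE 0.32, limma adjusted p = 6.4e-05) with Dppa4 siRNA. The reads left were 2.11% of control (0.769 to 4.63) and 1.72% (0.627 to 3.78).

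Arg2 kept the most reads of the members in Dppa4 siRNA libraries. Control libraries A, B, and C stood at 2.62, 2.76, and 3.40, from 206, 381, and 277 reads. Dppa2 siRNA libraries stood at -1.94, -2.65, and -2.42, from 7, 3, and 3 reads. Dppa4 siRNA libraries stood at -1.79, -1.95, and -1.82, from 9, 8, and 6 reads. The 3 Dppa4 siRNA values were close together, and all 6 knockdown values were below the controls. The difference was -5.26 (SE 0.28, limma adjusted p = 4.4e-05) with Dppa2 siRNA and -4.78 (SE 0.28, limma adjusted p = 6.4e-05) with Dppa4 siRNA. The reads left were 2.01% of control (1.07 to 3.46) and 2.90% (1.83 to 4.38), the latter being the highest share among the 5 members tested.

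Gm8994, the most expressed member per kb, also fell in both knockdowns. Control libraries A, B, and C stood at 3.20, 3.63, and 3.27, from about 309, 695, and 251 reads. Dppa2 siRNA libraries stood at -2.13, -3.21, and -3.65, from 6, 2, and 1 reads. Dppa4 siRNA libraries stood at -2.38, -2.63, and -2.81, from 6, 5, and 3 reads. The Dppa2 siRNA libraries spread more (SD 0.78) than the Dppa4 siRNA libraries (SD 0.21), and neither group reached the controls. The difference was -6.36 (SE 0.38, limma adjusted p = 6.1e-05) with Dppa2 siRNA and -5.97 (SE 0.38, limma adjusted p = 8.4e-05) with Dppa4 siRNA. The reads left were 0.958% of control (0.437 to 1.82) and 1.21% (0.662 to 2.04).

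Gm428 and Gm4340 were detected in control ESCs and had 0 reads in all 6 knockdown libraries. Gm428 stood at -3.78, -2.54, and -0.42 in control libraries A, B, and C, from 3, 12, and 20 reads. Relative to depth, its control libraries differed by 8.48-fold, with replicate C the highest. Gm4340 stood at -4.41, -3.49, and -2.95, from 1, 7, and 4 reads, a 5.09-fold range relative to depth. The other 5 members varied by 1.28-fold to 1.71-fold among the control libraries. With a floor of 3 reads over the knockdown group, Gm428 was at least 8.73-fold lower with Dppa2 siRNA and at least 10.7-fold lower with Dppa4 siRNA. Without control replicate C, which held 20 of its 35 control reads, the bounds for Gm428 were 4.86-fold and 5.97-fold. For Gm4340 the bounds were 2.99-fold and 3.68-fold, and 2.39-fold and 2.93-fold without control replicate B. All these bounds take the control reads as exact and do not cover their counting error. The separation of Gm4340 in control replicate A rested on 1 read. Both genes were below the filter on low values, and an exact two-sided permutation test gave p = 0.1 for each gene in each knockdown, the smallest that 3 against 3 libraries allow.

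**Figure D1:**
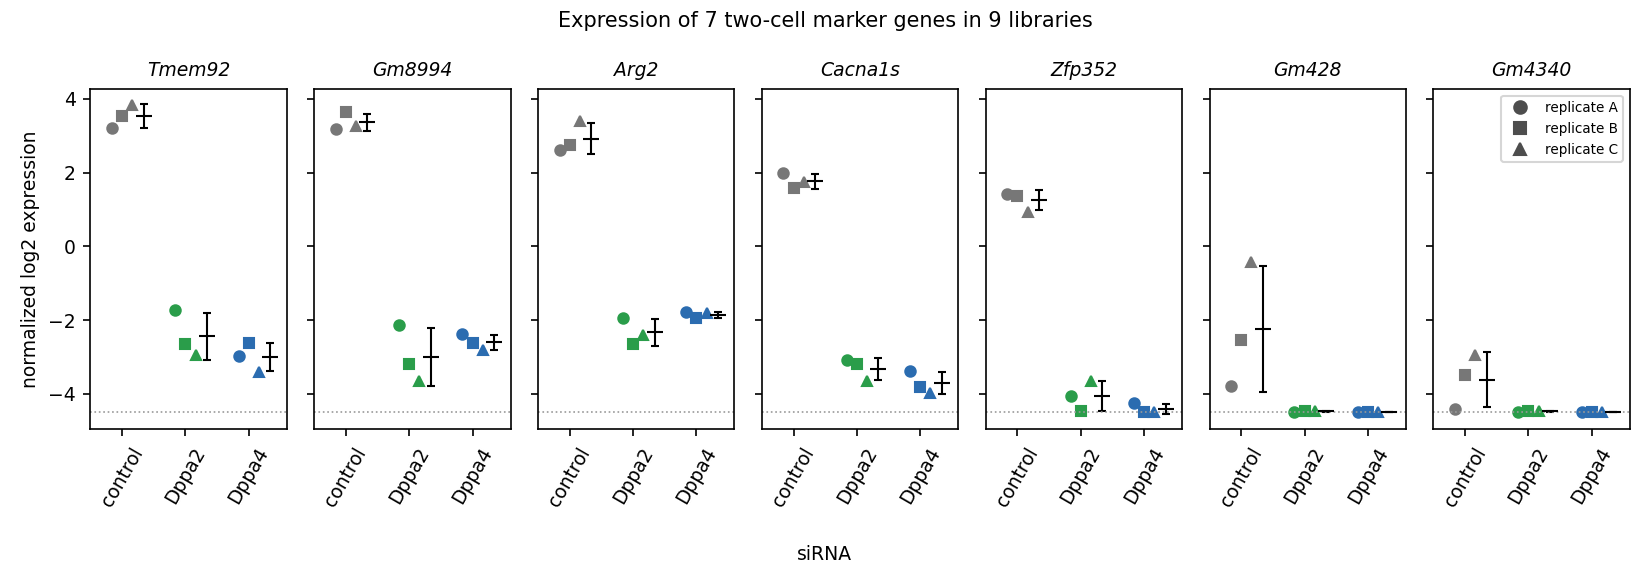
Normalized log2 expression (vertical axis) of the 7 members in each of 9 libraries, by siRNA. Points are libraries (shapes mark replicates A, B, and C), black bars are the mean and SD of 3 libraries, and the dotted line at -4.50 is the lowest value that stands for 0 reads. All knockdown libraries lie below all control libraries for each gene, and Gm428 and Gm4340 lie on the line in every knockdown library.

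A gene was tested if its log2 value was above -2 in at least 3 of the 9 libraries, which held for 14601 genes and for 5 members. Zfp352, Cacna1s, and Gm8994 passed through control libraries alone, so that a decrease was required of them. Tmem92 also passed in 1 knockdown library, replicate A of Dppa2 siRNA, and Arg2 in 4 knockdown libraries of both treatments. High-confidence genes had a limma adjusted p below 0.05 and also differed more than genes of like expression (intensity difference filter). With Dppa2 siRNA all 5 tested members were high-confidence and lowered, where 1.53% of tested genes were. With Dppa4 siRNA all 5 were again lowered, where 1.58% of tested genes were. The direction was fixed in advance for Zfp352, Cacna1s, and Gm8994, so with Dppa2 siRNA only Tmem92 and Arg2 can be set against the share. No Dppa4 siRNA library of Tmem92 was over -2, so with Dppa4 siRNA only Arg2 can. Tmem92 and Arg2 had every knockdown library below every control library in both comparisons. This order held for 8.2% of tested genes with Dppa2 siRNA and 10.2% with Dppa4 siRNA, the latter again to be set beside Arg2 alone. Zfp352, Cacna1s, and Gm8994 had the same order, which was fixed by the way they passed the filter. Gm428 and Gm4340 had the same order of libraries and are not among the tested genes. Zfp352 held the median difference of the 5 tested members in both knockdowns, at -5.31 (Dppa2 siRNA) and -5.66 (Dppa4 siRNA). Its decrease was required, so these medians cannot be set against those of all tested genes, 0.02 and 0.03. Of the members free of this limit, Tmem92 differed by -5.97 and Arg2 by -5.26 after Dppa2 knockdown. After Dppa4 knockdown Arg2, the only such member, differed by -4.78. Both knockdowns were compared with the same control libraries. Under the stricter filter (log2 above 0 in at least 3 libraries) 3 of the 5 members were high-confidence in each knockdown, because Zfp352 and Cacna1s then no longer passed the intensity difference filter.

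**Figure D2:**
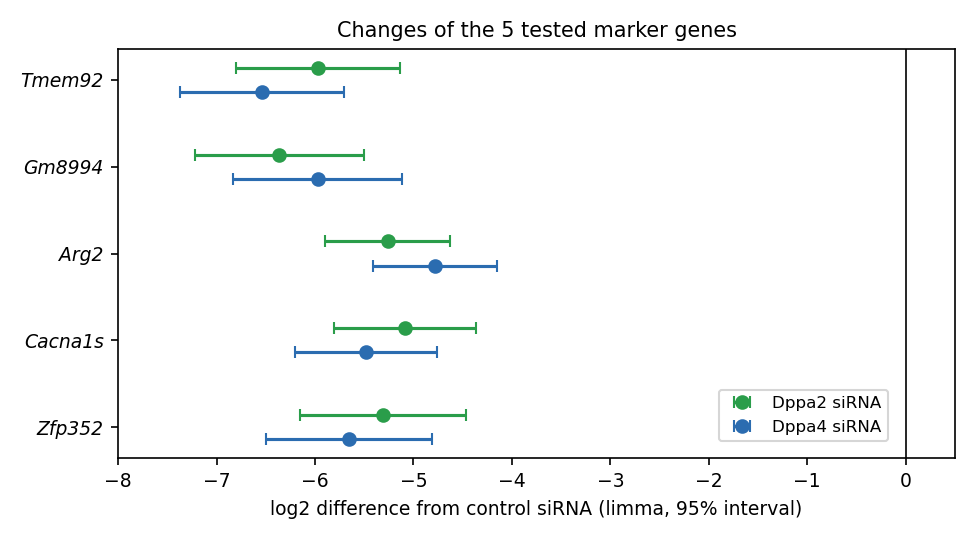
Log2 difference from control siRNA (horizontal axis) of the 5 tested members, with 95% intervals from limma, for Dppa2 siRNA (green) and Dppa4 siRNA (blue). All differences lie between -6.54 and -4.78, and the intervals of the 2 knockdowns overlap for every gene.

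**Figure D3:**
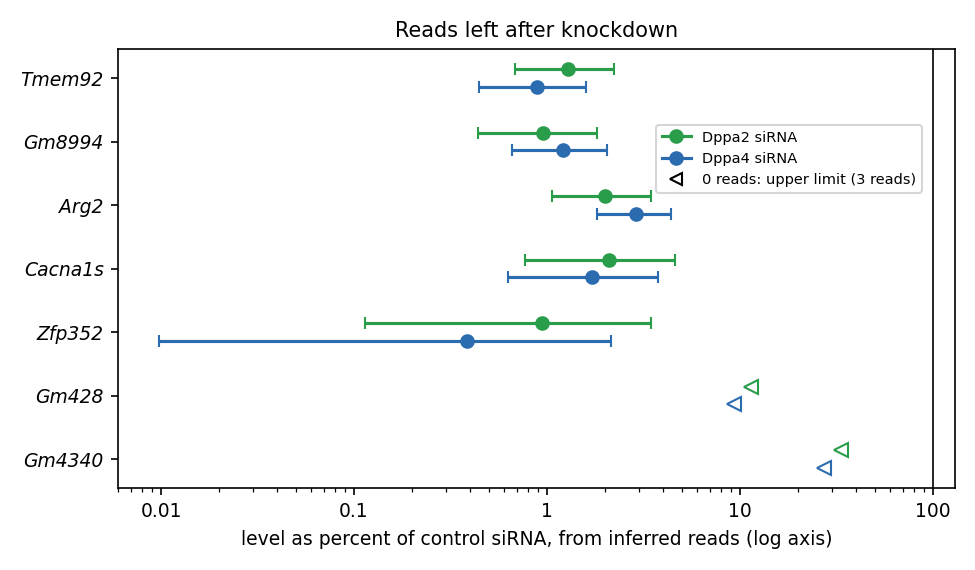
Level of each member as a percent of control siRNA, from pooled inferred reads, on a log axis. Points are values with exact 95% intervals for counting error. Open arrows are upper limits for genes with 0 reads, with the control reads taken as exact. The 5 tested members lie between 0.385% and 2.90%.

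Whether the 2 knockdowns differed was tested directly. None of the 5 tested members was called between Dppa4 and Dppa2 siRNA (limma adjusted p of 0.808 to 0.945), and 0 members had an unadjusted p below 0.05, where 0.0205% of tested genes were called and 6.76% had such an unadjusted p. Dppa4 minus Dppa2 siRNA was -0.35 for Zfp352 (95% interval -1.19 to 0.50). It was -0.57 for Tmem92 (-1.40 to 0.27) and -0.40 for Cacna1s (-1.12 to 0.32). For Arg2 the sign was opposite, at 0.48 (-0.15 to 1.12), as it was for Gm8994, at 0.39 (-0.47 to 1.25). These limma intervals reach 1.40 (log2) in size but rest on values near the bottom of the scale, so larger differences are not excluded. From pooled reads, the level with Dppa4 siRNA as a percent of that with Dppa2 siRNA had wide exact 95% intervals. They were 0.690 to 782 for Zfp352, 28.0 to 167 for Tmem92, and 21.8 to 305 for Cacna1s. For Arg2 the interval was 70.0 to 310, and for Gm8994 it was 51.1 to 332.

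Control libraries did not order the members alike. Replicate C was the highest control library for Tmem92, Arg2, Gm428, and Gm4340. For Zfp352 and Cacna1s the highest was replicate A, and for Gm8994 it was replicate B. Replicate A was the lowest for the same 4 genes that were highest in C and for Gm8994. Across all 9 libraries Pearson's r between pairs of the 5 tested members was 0.978 to 0.992, a description of points that share the split between 3 control and 6 knockdown libraries.

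The genes most like each tested member were taken as the 3 with the highest r over the 9 libraries, among 119 to 144 tested genes with r above 0.95 per member. Here too the libraries share the split between control and knockdown, so the order of these genes is a description only. BC080695, a gene on chromosome 4, was the first for Cacna1s (r = 0.996) and Tmem92 (r = 0.995) and was also among the 3 for Gm8994 (r = 0.991). BC080695 differed from control by -5.81 (Dppa2 siRNA) and -6.12 (Dppa4 siRNA) on the log2 scale. For Zfp352 the first was Dub2a (r = 0.996), a gene of the DUB deubiquitinase family, and for Gm8994 it was Usp17l5 (r = 0.992), of the same family. Arg2 was most like Gm5698 on chromosome 1 (r = 0.995), followed by CT954323.2 and Gm4027. Next for Tmem92 was Ccl3 (r = 0.993), a chemokine gene on chromosome 11, which changed by -3.92 and -4.23. The others were AW822073 for both Cacna1s and Zfp352, Gm13109 for Zfp352, AC164627.1 for Cacna1s, AC121888.1 for Gm8994, and 5430402O13Rik for Tmem92.

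The members were next compared with the genes around them. Within 100 kb lay 26 other rows, of which 13 were tested. In each knockdown 1 row was high-confidence and lowered, where 1.53% (Dppa2 siRNA) and 1.58% (Dppa4 siRNA) of tested genes were. That row was named Gm11237 in the table and ended 26.2 kb before Gm428, with 22, 63, and 58 reads in the control libraries and 0 in all knockdown libraries. It covers chr4:73607881-73657291, a place that GENCODE names Gm11238 and that encloses the GENCODE places of the Gm428 copies Gm11237 and Gm11236. The row changed by -4.73 with Dppa2 siRNA (limma adjusted p = 0.0011) and by -4.74 with Dppa4 siRNA (limma adjusted p = 0.0012). It passed the filter through control libraries alone, so a decrease was required of it. On the other side of Gm428, Rasef differed by -0.77 and -0.90 and was not called. Arg2 overlaps Vti1b, a vesicle SNARE gene on the opposite strand, which differed by -0.12 and 0.03 and was not called. Pigh, 41.1 kb before Arg2, differed by 0.12 and 0.16, and Rdh11, 18.0 kb after it, by 0.25 and 0.24, neither being called. Farther from Arg2, at 52.6 kb, the retinol dehydrogenase gene Rdh12 differed by 1.15 (limma adjusted p = 0.0080) and 1.14 (limma adjusted p = 0.0087) but did not pass the intensity difference filter. Cacna1s lies between Tmem9 (0.30 and 0.19) and Kif21b (-0.08 and -0.28), and neither was called. Beside Tmem92 the nearest tested gene was Cdc34-ps, at 34.2 kb, with differences of -0.04 and 0.15. Zfp352, Gm4340, and Gm8994 had no tested gene within 100 kb.

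**Figure D4:**
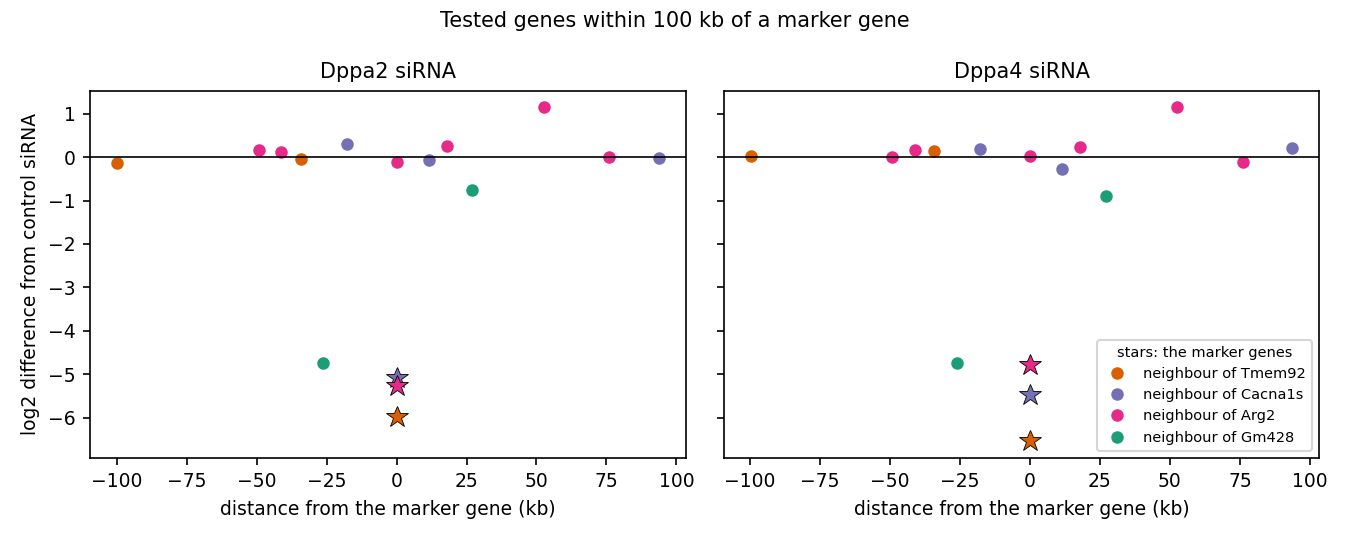
Log2 difference from control siRNA (vertical axis) of the 13 tested genes within 100 kb of a member, against their distance in kb (negative before the member on the chromosome). Stars at 0 are the members Tmem92, Cacna1s, and Arg2. Except for Gm11237 at about -4.73, the neighbours lie far above the stars.

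Relatives of Cacna1s and Arg2 by function were described from lists. Of 21 genes for calcium channel subunits and the triad of muscle, 12 were tested and none was high-confidence in either knockdown. By limma alone 0 were called, where 3.44% of tested genes were in each knockdown. An unadjusted p below 0.05 was found for 4 with Dppa2 siRNA and 5 with Dppa4 siRNA. The share of all tested genes with such a p against control was not determined, so these counts have no background, here or for the other lists. The most expressed were Cacnb3, which differed by -0.04 and 0.26, Cacna1a, by 0.10 and 0.18, and Cacnb1, by 0.36 and 0.45. Ryr1, the calcium release channel that Cacna1s contacts in muscle, was expressed at 3.09 in control ESCs and differed by -0.24 and -0.17. The medians of the list were -0.03 and 0.21. Among skeletal muscle markers, Myog reached at most 6 reads and Myod1 at most 7 in any library, whereas Mylpf and Actn3 were expressed in all groups. None of the 4 tested muscle markers was called by limma, 2 with Dppa2 siRNA and 0 with Dppa4 siRNA had an unadjusted p below 0.05, and the log2 of their summed level was 6.84 to 7.32 in control, 6.90 to 7.30 in Dppa2 siRNA, and 7.06 to 7.35 in Dppa4 siRNA libraries.

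Of 24 genes of arginine and polyamine metabolism, 20 were tested, and 1 was high-confidence and lowered in each knockdown. With Dppa2 siRNA this was Nos3, the endothelial nitric oxide synthase, at -1.39 (SE 0.16, limma adjusted p = 0.0019). With Dppa4 siRNA Nos3 differed by -1.26 (limma adjusted p = 0.0041) without passing the intensity difference filter. The gene called with Dppa4 siRNA was Sms, spermine synthase, at -0.52 (SE 0.11, limma adjusted p = 0.035), which differed by -0.28 with Dppa2 siRNA (limma adjusted p = 0.251). Both calls were lost without single libraries, Nos3 without control replicate A or B or Dppa2 siRNA replicate A or B and Sms without control replicate A or C, Dppa2 siRNA replicate A or C, or Dppa4 siRNA replicate A or B. Odc1, which makes putrescine from the ornithine that arginase yields, differed by -0.23 and -0.17 and was not called. Srm differed by -0.16 and 0.15 and Oaz1 by 0.05 and 0.18, and neither was called. Arg1, the cytosolic arginase of liver, reached at most 4 reads in any library, and Otc was at 0 in all. The medians of the list were -0.13 and -0.17. By limma alone 2 genes of the list were called in each knockdown, where 3.44% of tested genes were. Beside Nos3, Gatm was called so with Dppa2 siRNA, at -0.995 (limma adjusted p = 0.045). With Dppa4 siRNA Gatm differed by -0.80 (limma adjusted p = 0.093). An unadjusted p below 0.05 was found for 4 genes with Dppa2 siRNA and 8 with Dppa4 siRNA.

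Other 2C genes gave the setting for the members. Of 55 listed, 42 had a row and 33 were tested. High-confidence and lowered were 25 with Dppa2 siRNA and 27 with Dppa4 siRNA, where 1.53% and 1.58% of tested genes were, with none raised. Listed genes with 0 reads in all knockdown libraries passed the filter through control libraries alone. A decrease was required of them, so these counts are no test against the shares. The median difference of the tested list genes was -5.10 and -5.02, and the 5 tested members, at -5.31 and -5.66, lay within the range of this list. The largest decreases, averaged over both knockdowns, were those of Gm5662 (-7.93 and -7.79), Gm12794 (-7.76 and -7.33), Gm2022 (-7.80 and -6.90), and Gm2016 (-7.09 and -7.57). P2ry12, Tdpoz5, Gm7647, and Gm6763 were at 0 reads in all libraries. The list was written with earlier results of these libraries known, so the direction it shows is no independent evidence.

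**Figure D5:**
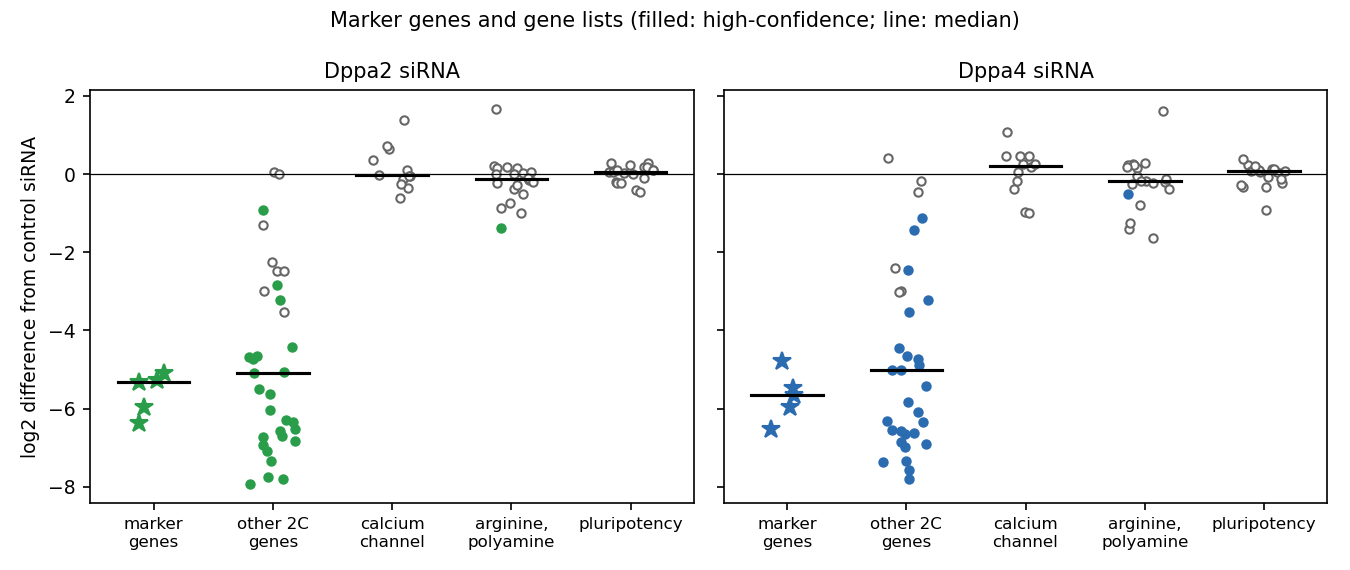
Log2 difference from control siRNA (vertical axis) of the 5 tested members (stars) and of the tested genes of 4 lists, for each knockdown. Filled points are high-confidence genes and lines are medians. The medians of the members and of the other 2C genes lie near -5, and single 2C genes run from -7.93 to 0.40. The medians of the calcium channel, arginine, and pluripotency genes lie near 0, and single genes of these lists run from -1.65 to 1.66.

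Markers of other cell types were checked beside these decreases. Of 8 primitive endoderm markers 7 were tested, none was high-confidence, and Afp was at 0 in all libraries. Their median difference was 0.57 and 1.20, and limma alone called 0 with Dppa2 siRNA and Gata6 and Sox17 with Dppa4 siRNA, where an unadjusted p below 0.05 was found for 3 and 5. The log2 of their summed level was 3.36 to 3.81 in control, 3.78 to 4.11 in Dppa2 siRNA, and 4.30 to 4.46 in Dppa4 siRNA libraries. The Dppa4 siRNA range lay above the control range, and the Dppa2 siRNA range overlapped it. Their part in the changes of the members was not tested. No trophoblast, mesoderm, neural, fibroblast, or liver and macrophage marker was high-confidence in either knockdown, and 0 were called by limma alone. An unadjusted p below 0.05 was found with Dppa2 siRNA for 2 mesoderm markers, 1 neural marker, and 1 liver and macrophage marker, and with Dppa4 siRNA for 2 neural markers and 1 liver and macrophage marker. The log2 of the summed level of the 4 neural markers was 5.36 to 5.64 in control, 5.17 to 5.22 in Dppa2 siRNA, and 4.96 to 5.16 in Dppa4 siRNA libraries, so both knockdowns lay below control. For the 6 liver and macrophage markers it was 2.79 to 3.12, 3.32 to 3.77, and 3.30 to 3.75, so both lay above control, with Cd68 as the one marker tested and Alb at 1 read or fewer in every library. The part of these lists in the changes of the members was not tested either. The control and knockdown ranges overlapped for trophoblast, mesoderm, and fibroblast markers. Postn and Lyz2 were at 0 in all libraries.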

How the data were processed

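RNA of 9 libraries was measured by single-end sequencing of polyadenylated RNA, with samples grouped by the siRNA in their labels. The authors trimmed reads (Trim Galore 0.4.5 in the submitters' processing notes), mapped them to GRCm38 with HISAT2 2.0.5, quantitated mRNA probes strand-specifically in SeqMonk, and matched the distributions of the libraries. The authors deposited normalized log2 expression, which depends on this matching and on transcript length. DESeq2, which the authors used, needs whole reads. In its place limma (version 3.58.1, R version 4.3.3) modelled the log2 values of the 9 libraries by treatment, with an intensity trend and 3.04 prior degrees of freedom, and p-values were adjusted (Benjamini-Hochberg) over the 14601 genes tested, those over -2 in 3 or more libraries. A high-confidence call needed an adjusted p under 0.05 as well as an intensity difference p under 0.05, taken against the 1% of genes closest in mean expression. The code was tested on simulated data.

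Reads were inferred from the rank of distinct values, and library totals from reads per linear unit between 100 and 300 reads. Between 0% and 4.5% of steps in that range were over the size of 1 read, and the totals are approximate. Groups at 0 were given a floor of 3 reads over the group. Intervals are exact (Clopper-Pearson, 95%), and cover counting error only, since PCR copies were not told apart. The study calls its replicates biological, and p-values measure the spread between these libraries. Genes were placed with the GENCODE annotation of GRCm38, and promoters came from RefSeq (GRCm38.p6).

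The members, the gene lists, and the tests were chosen with earlier results of these data known. The text names the members, both targeted genes, the 3 genes most like each tested member, the called and the 3 most expressed genes of the related lists, the nearest tested neighbours, and 4 other 2C genes with the largest mean decrease. Ryr1, Arg1, Gatm, Rdh12, and the muscle, endoderm, and pluripotency genes named besides were chosen after their values were seen. Analyses used scipy 1.17.1, pandas 2.3.3, and matplotlib 3.10.9 under Python 3.11.15. Alternatives were another filter, none, 0.5 added on the linear scale, median centring, the 2 groups compared alone, no trend, either call rule, a replicate block, and leaving out each library.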

Additional observations from a re-analysis of the deposited data

Results flagged for a closer look

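The test of the difference between the knockdowns called both targeted transcripts and none of the 5 tested members. Dppa2 was higher with Dppa4 siRNA than with Dppa2 siRNA by 3.43 (log2, limma adjusted p = 2.4e-05). Dppa4 differed by -0.99 (log2, Dppa4 siRNA minus Dppa2 siRNA, limma adjusted p = 0.0035). With 3 libraries per treatment, single libraries were not tested for standing apart.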

How the results depend on the processing

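The 5 tested members had a limma adjusted p of 0.0026 or below in both knockdowns in all 160 checks (10 differences under 16 settings each), with differences between -6.80 and -2.36. The weakest came from 0.5 added on the linear scale, which compresses low values. For Zfp352, Cacna1s, and Gm8994 the direction was fixed by the way they passed the filter, so its return in these checks is no further support. Tmem92 likewise did not pass through Dppa4 siRNA libraries. Members lowered were 5 in each knockdown except under the stricter filter (3 and 3), and 5 without any 1 library. Members called between the knockdowns stayed at 0. With 0.5 added, Gm428 differed by -0.52 and -0.53 and Gm4340 by -0.11 and -0.11. Without 1 library Gm428 ranged from -3.00 to -1.32 and from -3.01 to -1.33 and Gm4340 from -1.26 to -0.53 and from -1.27 to -0.54, all nearest 0 without control replicate C. Without the filter they had adjusted p of 0.0545 and 0.246 (Gm428) and of 0.0816 and 0.306 (Gm4340).

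For Dppa2 siRNA the high-confidence lowered genes, 224 in all, were 340 without the filter, 137 with the stricter one, and 81 with the intensity difference p adjusted. For Dppa4 siRNA, 230 became 145 and 68 under the last 2 settings. Without 1 library the counts were 170 to 204 and 140 to 232, with 149 without Dppa4 siRNA replicate A and 140 without its replicate B. Other 2C genes lowered were 10 and 11 with the stricter filter, 15 for Dppa4 siRNA with the intensity p adjusted, and 24 to 27 and 23 to 28 without 1 library. Related genes called, 1 in each knockdown, were 0 to 1 without 1 library, 2 by limma alone, and 0 with the intensity p adjusted. For Dppa2 siRNA they were also 0 with 0.5 added, and for Dppa4 siRNA 0 without the filter, with 2 groups alone, without the trend, and with the replicate block. Except where a setting changes the genes or libraries tested, the cause was not tested.

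No pairing of the libraries by replicate letter was seen, but deviations from group means depend on each other and cannot decide it. Deviations of libraries with the same letter correlated at -0.58 to 0.37 over 9 pairs, and those with different letters at -0.66 to 0.69 over 18 pairs. With the replicate block 5 members were lowered in each knockdown and 0 were called between them, and 167 and 156 genes were lowered in all.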
